A study of Mus musculus with 4 samples.

Results

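The nuclear genes of the mitochondrial ribosomal proteins were chosen by name: all symbols made of Mrpl or Mrps, a number and at most 1 letter. They numbered 78 of the 13831 symbols in the table and held 18726 of the 1903919 reads with a tail length above 0 nucleotides (nt), or 0.984%. The 49 Mrpl genes, named for the large subunit, had 12598 reads, and the 29 Mrps genes, named for the small subunit, had 6128. The reads come from direct RNA nanopore sequencing of J1 mouse embryonic stem cells grown with serum and LIF, in which each native RNA molecule gives 1 read and its poly(A) tail is measured on the same molecule. The study compared tail lengths between wild-type cells (WT 1 and WT 2) and cells knocked out for Mov10, an RNA helicase (KO 1 and KO 2). The labels name no other allele and no treatment, and they say neither whether the knockout is a single clone nor whether replicates are separate cultures, so all p-values measure only the spread between these libraries.

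Mitochondria have ribosomes of their own, which translate the few messages of the mitochondrial genome, most of them for subunits of the respiratory chain. The ribosomal RNAs of these ribosomes are mitochondrial transcripts, whereas every protein of them is encoded in the nucleus, made in the cytosol and imported. Some of the proteins descend from bacterial ribosomal proteins and others were added in mitochondria. The tail of an mRNA binds poly(A)-binding protein and is shortened by deadenylases as the message ages, so tail length is followed as a property of mRNA turnover and translation.

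The libraries held 439535 (WT 1), 351133 (WT 2), 683239 (KO 1) and 430012 (KO 2) reads, of which 3959, 3576, 6580 and 4611 belonged to the mitoribosomal protein genes. All 78 genes had reads in every library. Mov10 itself had 26 and 14 reads in the WT libraries and 0 and 1 in the KO libraries, and was the only gene of 4815 whose read number passed an adjusted p of 0.05 (limma voom, adjusted p = 0.0335). Markers of embryonic stem cells were present, 8 of 8, with summed levels of 9098 and 9350 reads per 1000000 reads of the library (RPM) in WT and 7981 and 6751 in KO. All 8 had a lower read number in KO, with log2 changes from -1.22 (Klf4) to -0.33 (Dppa5a), while 50% of all genes tested had a change above 0. None was called. A limma voom unadjusted p under 0.05 was found for 3 of the 8, a larger share than the 10.4% of all genes tested. Of 5 fibroblast genes, Col1a1, Col1a2, Col3a1 and Postn were at 0 in all libraries, and Thy1 had 9.10 and 5.70 RPM in WT and 11.7 and 14.0 RPM in KO. Over the reads of the mitoribosomal protein genes, the replicates of each genotype varied beyond sampling noise (chi-square divided by its degrees of freedom, 1.89 within WT and 2.01 within KO).

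Read levels among the 78 genes ran from 27 reads in all for Mrpl53 to 1143 for Mrpl15, with a median of 194. Mrpl15, a protein of the large subunit, had a mean level of 597.6 RPM over the 4 libraries and 6.10% of the reads of all 78 genes. It was followed by Mrps24, a small-subunit protein of the uS3 family at the mRNA entry site (364.0 RPM), by Mrpl12, a protein of the stalk of the large subunit (349.8 RPM), and by Mrps14 (295.2 RPM), a small-subunit protein of bacterial descent. The next 4 were the large-subunit genes Mrpl30, Mrpl52, Mrpl17 and Mrpl42, at 288.3, 269.0, 267.4 and 261.9 RPM. Together these 8 genes held 27.7% of the reads, so no single gene dominated the pooled values below. RPM is not divided by length, because each molecule gives 1 read. The order of the genes by read number was similar between libraries, with Spearman correlations across the 78 genes of 0.778 to 0.912, a description over genes that are not independent replicates.

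Some symbols share their transcripts with other genes, so that the split of reads between them can be uncertain. This touched 14 of the 78 genes and 10.3% of their reads, against 53.4% of all reads. A transcript counted as shared if even 1 read carried another symbol. Much of the family's share lay on transcripts with few such reads, for example 412 reads of Mrpl51 against 1 and 293 of Mrps18b against 1. Every read of Mrpl23, an exit-tunnel protein, lay on transcripts that also carried its pseudogene Mrpl23-ps1, for example 21 reads against 223 on ENSMUST00000173086.1. Mrpl53 shared all its transcripts with Gm42688. Tail lengths of Mrpl23 and Mrpl53 are therefore given only inside the family's pooled values.

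Promoters of some of these genes are shown because all members must be transcribed to supply the same ribosome, and the motifs of known activators can be read from them. NRF1 and factors of the ETS family, which include GABP, are known as activators of nuclear genes for mitochondrial proteins, and YY1 is a general promoter-binding factor. The RefSeq windows of GRCm38.p6, 250 bases before to 50 after each start, held 75 windows for 69 of the 78 genes; Mrpl4, Mrpl13, Mrpl15, Mrpl19, Mrpl38, Mrpl54, Mrps28, Mrps34 and Mrps35 had none. The genes below are the most read one with a window (Mrps24), the pair with the most matches (Mrpl32 and Mrps18b), and Mrpl58. Mrpl58 was added after its values were seen, and Mrpl12, the next most read gene with a window, was left out. All are printed 5′ to 3′ in the direction of the gene, and capitals mark matches to the NRF1 letters GCGCATG, the ETS letters CCGGAAG or the YY1 letters GATGGCG, each on either strand.
Mrps24 (chr11:5707652-5707951, minus strand): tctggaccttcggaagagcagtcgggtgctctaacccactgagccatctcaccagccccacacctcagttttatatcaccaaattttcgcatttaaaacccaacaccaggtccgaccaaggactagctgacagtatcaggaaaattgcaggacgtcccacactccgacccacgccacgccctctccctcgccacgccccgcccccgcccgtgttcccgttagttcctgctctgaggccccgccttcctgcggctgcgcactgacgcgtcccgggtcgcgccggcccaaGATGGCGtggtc
Mrpl32 (chr13:14612988-14613287, minus strand): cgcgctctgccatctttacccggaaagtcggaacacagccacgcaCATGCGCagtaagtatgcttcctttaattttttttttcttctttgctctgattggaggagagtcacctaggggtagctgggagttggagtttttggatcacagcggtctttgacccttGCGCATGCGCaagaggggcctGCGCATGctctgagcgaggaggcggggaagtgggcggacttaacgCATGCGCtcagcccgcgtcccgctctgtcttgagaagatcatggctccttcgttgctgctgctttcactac
Mrps18b (chr17:35916391-35916690, minus strand): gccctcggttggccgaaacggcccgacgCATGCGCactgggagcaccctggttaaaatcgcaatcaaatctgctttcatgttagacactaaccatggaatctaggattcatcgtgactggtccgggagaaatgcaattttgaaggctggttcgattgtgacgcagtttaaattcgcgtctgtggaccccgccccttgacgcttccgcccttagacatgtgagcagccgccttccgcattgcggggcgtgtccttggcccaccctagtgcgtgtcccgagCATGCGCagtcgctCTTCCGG
Mrpl58 (chr11:115403502-115403801, plus strand): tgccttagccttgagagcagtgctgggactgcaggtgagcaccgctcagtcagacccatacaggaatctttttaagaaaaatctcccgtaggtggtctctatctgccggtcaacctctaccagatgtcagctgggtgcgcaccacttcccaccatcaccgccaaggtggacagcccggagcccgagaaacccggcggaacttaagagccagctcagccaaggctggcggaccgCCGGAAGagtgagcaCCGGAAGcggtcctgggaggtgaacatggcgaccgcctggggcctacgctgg

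Mrps24 had 1 YY1 match next to the end of its window, and Mrpl32 had 5 NRF1 matches, of which a neighbouring pair overlaps on opposite strands. Mrps18b had 2 NRF1 matches and 1 ETS match, and Mrpl58 had 2 ETS matches. The window of Mrpl12 had no match. Any of the 3 motifs stood in 36 of the 69 genes (52.2%), so the printed windows leave out the genes without a match. Over the 75 windows, 34.7% held the ETS letters, against 8.86% of all 32851 windows and 23.9% of the 1809 windows of other genes with enough reads for the tail test. The NRF1 letters stood in 10.7% of the windows, against 3.91% and 8.73%, and the YY1 letters in 10.7%, against 3.49% and 8.40%. Most of the distance to all promoters was thus also present in promoters of other well-read genes of these cells. The 26 genes with an ETS match had a median level of 109.1 RPM and the 43 with a window but no match 100.7 RPM, a description that was not tested. A match describes letters in the window and not binding.

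The first question was how long the tails of these messages are beside those of other nuclear-encoded genes, in the same library. For 64 of the 78 genes each library had at least 20 reads, and the median tail was taken per gene. The median over these 64 genes was 95.7 and 97.7 nt in the WT libraries and 101.8 and 93.7 nt in the KO libraries. The same value over 1860 other nuclear-encoded genes was 102.5, 109.8, 110.5 and 102.2 nt. In each library the mitoribosomal protein genes were the shorter group, and their longest library value lay below the lowest of the other genes.

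The within-library difference was -6.85, -12.1, -8.70 and -8.52 nt, with a mean of -9.05 ± 2.21 nt (SD, n = 4 libraries). It was negative in 4 of 4 libraries, and the exact two-sided sign-flip permutation test gave p = 0.125, the smallest p that 4 libraries allow, so an adjusted p under 0.05 could not be reached (0.208 over 5 contrasts). By gene, 52 of the 64 (81.2%) had a mean tail below the median of the other genes, 106.2 nt. Of the 64 genes, 27 were below it in all 4 libraries and 4 in none. By quartile, 34 were below the lower quartile of the other genes (98.3 nt) and 3 above the upper quartile (115.6 nt).

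**Figure D1:**
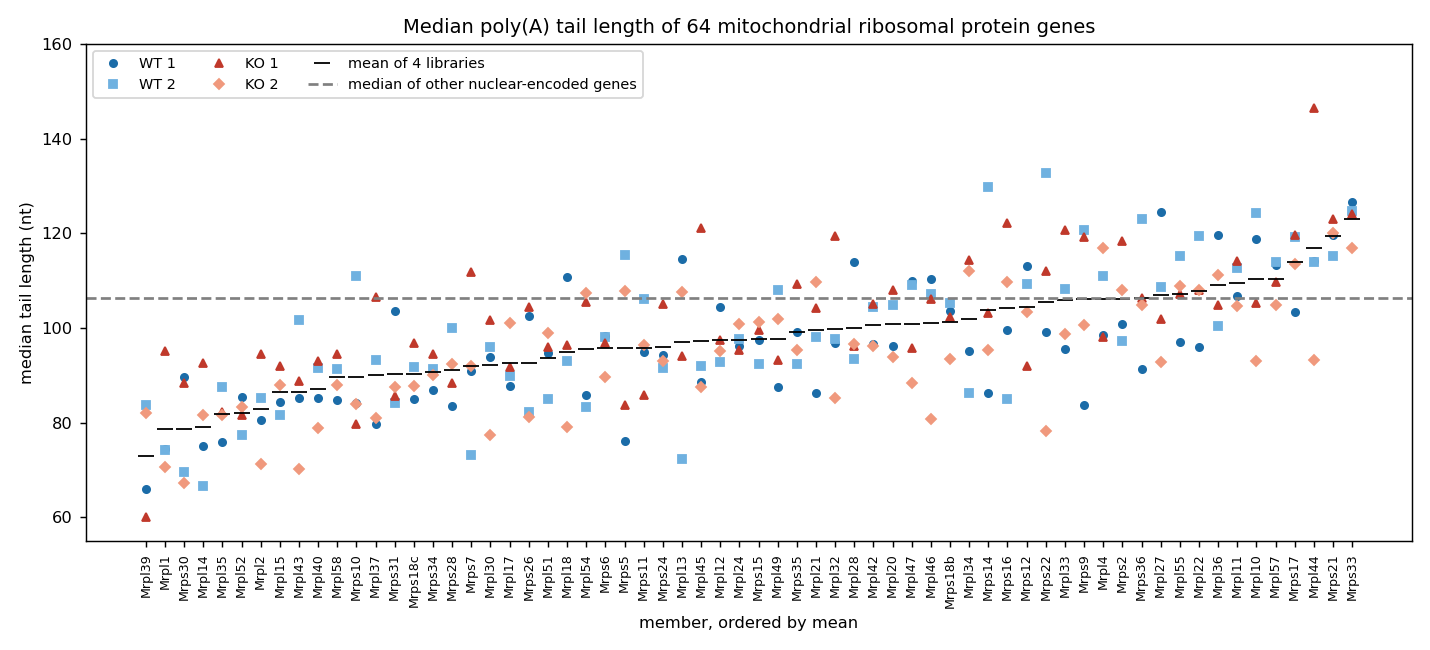
Median poly(A) tail length in nt (y axis) of the 64 mitochondrial ribosomal protein genes with at least 20 reads in each library, ordered by their mean over libraries (x axis), with 1 point per library. Means run from 73.0 nt for Mrpl39 to 123.1 nt for Mrps33, and the median SD of a gene's 4 points, 9.41 nt, is close to the SD of the means across genes, 10.2 nt.

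Pooling the reads of all 78 genes, including the 14 genes with fewer reads (1213 reads), gave medians of 93.9 and 97.8 nt for WT 1 and WT 2 and of 100.2 and 94.1 nt for KO 1 and KO 2. Against the reads of other nuclear-encoded genes the distribution was shifted at its short end in WT 1, where 5% of the family's reads had tails below 30.7 nt and 25% below 61.2 nt, against 37.7 and 67.7 nt, while the upper quartiles were 137 and 138.9 nt. In the other libraries its long end was lower too. Tails of 150 nt or more made up 19.4, 20.1, 19.5 and 17.3% of the family's reads in WT 1, WT 2, KO 1 and KO 2, and 19.6, 24.8, 24.6 and 20.4% of other nuclear-encoded reads. Tails under 30 nt made up 4.72% (WT 1), 4.61% (WT 2), 2.40% (KO 1) and 4.08% (KO 2) of the family's reads. This share exceeded that of other nuclear-encoded reads by 2.42, 1.66, 0.880 and 1.36 percentage points, a mean of 1.58 ± 0.647 (SD, n = 4) and higher in 4 of 4 libraries, with the smallest possible p of 0.125 in the exact sign-flip permutation test (adjusted 0.208). This contrast was chosen after the distributions had been seen. Messages whose tails are too short to be held by the oligo(dT) beads are not seen.

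**Figure D2:**
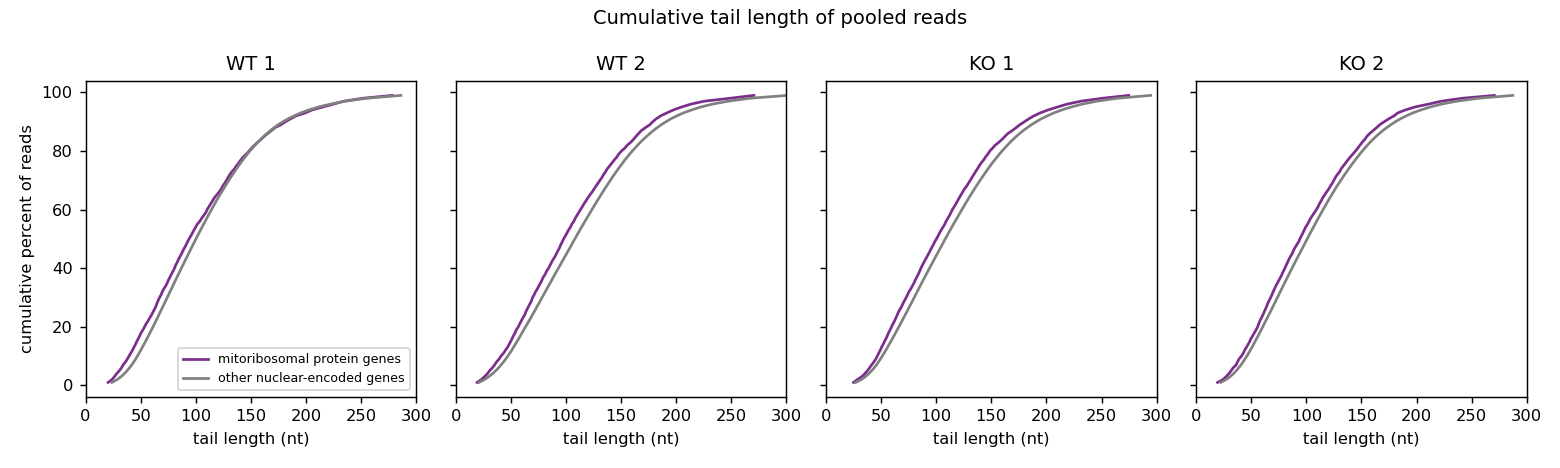
Cumulative percent of reads (y axis) by tail length in nt (x axis), 1 panel per library, for pooled reads of the mitoribosomal protein genes and of comparison genes. The family's curve lies to the left of that of other nuclear-encoded reads below the median, where it holds 0.880 to 2.42 percentage points more reads under 30 nt.

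The short tails were spread over the family. The 698 reads under 30 nt came from 74 of the 78 genes, and Mrpl15, with the most reads, had 61 of them (8.74%). The share was highest in Mrpl14 (11.3% of 195 reads), a protein of the subunit interface, and in Mrpl39 (9.90% of 192 reads), a mitochondrial addition to the large subunit that resembles threonyl-tRNA synthetase.

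Beside other gene groups the distance was smaller or less regular. Against 84 cytosolic ribosomal protein genes, which encode the proteins of the ribosomes that make these very proteins, the differences were -2.40, -4.70, 0.163 and -2.82 nt, a mean of -2.44 ± 2.00 nt, negative in 3 of 4 libraries (exact sign-flip permutation p = 0.25, adjusted 0.25). Against 38 nuclear-encoded genes of respiratory complex I, whose partner subunits are translated by the mitochondrial ribosome, they were 1.10, -13.7, -6.92 and -10.6 nt, a mean of -7.55 ± 6.40 nt (p = 0.25 in the same exact test, adjusted 0.25). Neither difference of gene medians was negative in all 4 libraries. Over pooled reads both were, with means of -2.27 nt (cytosolic) and -9.03 nt (complex I) and an exact permutation p of 0.125 each. The cytosolic contrast was also negative in all 4 libraries with at least 10 reads per library (-2.77 nt) and with at least 50 (-5.23 nt, over 19 of the mitoribosomal protein genes).

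Large-subunit names had shorter tails than small-subunit names in every library. The difference of medians between the 39 Mrpl and 25 Mrps genes was -2.05, -3.93, -5.26 and -2.04 nt, a mean of -3.32 ± 1.57 nt (SD, n = 4, exact sign-flip permutation p = 0.125, adjusted 0.208). Names and place differ for Mrps30 and Mrps18a, which sit in the large subunit: with both counted as large, the mean was -4.72 nt. The difference was not negative in every library with at least 50 reads (mean -1.29 nt, 15 Mrpl and 4 Mrps genes, exact permutation p = 0.75), nor with shared transcripts left out (mean -2.17 nt, exact permutation p = 0.375). The 40 genes of bacterial descent had a library median of 97.7 ± 2.11 nt and the 21 of mitochondrial origin 94.1 ± 7.62 nt (SD, n = 4 libraries), a difference that was not tested. That grouping was made after the data were seen.

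**Figure D3:**
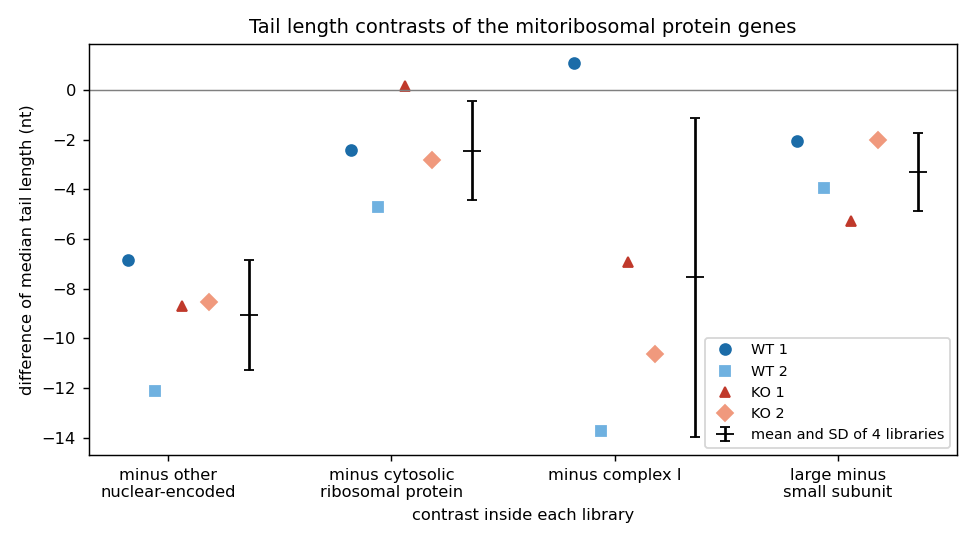
Difference of median tail length in nt (y axis) for 4 contrasts inside each library (x axis), with 1 point per library. The contrast with other nuclear-encoded genes lies between -12.1 and -6.85 nt and the large minus small subunit contrast between -5.26 and -2.04 nt, both below 0 in all 4 libraries, whereas the contrasts with cytosolic ribosomal protein and complex I genes reach 0.163 and 1.10 nt.

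Among single genes the shortest tails belonged to Mrpl39, with medians of 66.1, 83.7, 60.1 and 82.0 nt in WT 1, WT 2, KO 1 and KO 2. Mrpl1, of the mobile L1 stalk, had 74.4, 74.2, 95.2 and 70.6 nt, and Mrps30, found in the large subunit despite its name, 89.6, 69.6, 88.4 and 67.3 nt. Mrpl14 had 75.1, 66.6, 92.6 and 81.6 nt. WT and KO values overlapped for Mrpl39, Mrpl1 and Mrps30, while both KO values of Mrpl14 were above its WT values.

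The longest tails belonged to Mrps33, a small-subunit protein added in mitochondria, with 126.6, 124.6, 124.2 and 116.8 nt. Mrps21, of bacterial descent, had 119.6, 115.2, 123.1 and 120.1 nt. Mrpl44, a large-subunit protein with an RNase III-like fold, had 114.1, 113.9, 146.5 and 93.3 nt, and Mrps17, a protein of the small-subunit body, 103.3, 119.3, 119.6 and 113.5 nt. Mrps33, Mrps21 and Mrps17 lay above the median of the other nuclear-encoded genes in all 4 libraries, Mrps17 only narrowly in WT 1 (103.3 against 102.5 nt). The KO libraries held both the highest and the lowest value of Mrpl44. Across the 64 genes the SD of the gene means was 10.2 nt, and the median SD of a gene over its 4 libraries was 9.41 nt, so neighbours in the order do not differ beyond their spread. Gene medians in 2 libraries correlated with Spearman coefficients of 0.368 to 0.461, far lower than for read number, and read number and tail length in the same library with -0.150 to 0.0354.

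The paralogs Mrps18a, Mrps18b and Mrps18c descend from the same bacterial protein, S18, and occupy different places of the ribosome, Mrps18a in the large subunit. Mrps18b was the longest-tailed of them in each library, at 103.5, 105.3, 102.3 and 93.5 nt. Mrps18c had 85.0, 91.8, 96.9 and 87.8 nt. Mrps18a, with only 14 reads in WT 1 and too few for the test, had 87.2, 99.2, 92.9 and 85.6 nt. Mrps18a and Mrps18c overlapped each other over the libraries, and Mrps18b exceeded Mrps18c in each of the 4.

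Isoforms could be compared in Mrpl15 alone, the only gene with 2 transcripts of at least 20 reads in every library. The main transcript ENSMUST00000156816.6 had medians of 88.4, 83.5, 91.9 and 89.2 nt, and ENSMUST00000130201.7 had 65.3, 61.2, 90.1 and 87.0 nt from 30 to 46 reads each. The first was longer in 4 of 4 libraries, by 12.3 ± 11.9 nt (SD). The distance was wide in both WT libraries and narrow in both KO libraries, and this was not tested.

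The second question was whether loss of Mov10 went with a change of these tails. Of the authors' deposited classes, non-target of Mov10 held 60 of the 78 genes (76.9%), against 42.5% of all symbols; 14 were targets without m6A, 1 (Mrps2, of the small subunit) was a target with m6A and 3 had no class. Median tails were 98.4 ± 4.00 nt over 48 non-target genes and 93.4 ± 3.53 nt over 13 targets without m6A (SD, n = 4 libraries), a difference that was not tested. The family's pooled median averaged 95.9 ± 2.77 nt over the WT libraries and 97.1 ± 4.35 nt over the KO libraries (SD, n = 2 each), a difference of 1.27 nt that was smaller than either spread (exact two-sided permutation p = 0.667; the smallest possible with 2 against 2 is 0.333). It turned to -0.688 nt without WT 1 and to -1.80 nt without KO 1. The share of tails under 30 nt was 4.67 ± 0.077% in WT and 3.24 ± 1.19% in KO, a difference of -1.43 points at the smallest possible exact permutation p of 0.333. KO 1 was the lowest library, and without it the difference was -0.591 points. The distance from other nuclear-encoded genes changed between genotypes by 0.879 nt and the large minus small subunit difference by -0.655 nt (exact permutation p = 1 for each). The excess of tails under 30 nt was 2.42 and 1.66 points in WT against 0.880 and 1.36 in KO, with no overlap, a change of -0.919 points at the smallest possible exact permutation p of 0.333. The differences from cytosolic ribosomal protein and complex I genes changed by 2.22 and -2.45 nt (exact permutation p = 0.667 and 1).

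By gene, limma on log2 median tail length called 0 of the 64 genes, and 0 of all 1935 genes tested (0%). At an unadjusted p under 0.05 it gave 1 of the 64, against 2.33% of all genes. The median log2 change over the 64 genes was 0.0096, against 0.0061 over all genes, with 37 genes above 0 (57.8%; 51.8% of all genes). Both KO medians lay above both WT medians in 12 of the 64 (18.8%; 14.7% of all genes) and below in 10 (15.6%; 11.8% of all genes). These shares were near those of all genes. The median standard error of a gene was 0.18 on the log2 scale, and a gene that missed the threshold is not thereby shown to be unchanged.

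The 4 genes with the smallest unadjusted p all had longer KO medians. Mrps16, a small-subunit protein of bacterial descent, had 99.6 and 85.1 nt in WT and 122.2 and 109.8 nt in KO (log2 change 0.33, SE 0.16, limma unadjusted p = 0.0412, adjusted p = 0.9998). Mrpl54, a large-subunit protein, had 85.8 and 83.4 nt in WT and 105.4 and 107.4 nt in KO (0.33 on the log2 scale). Mrps7, a protein of the small-subunit head, had 90.8 and 73.2 against 111.8 and 92.0 nt (0.31), and Mrpl14 followed with 0.30. In each of these genes the KO libraries lay above the WT libraries, and the adjusted p was near 1 in each. The sizes depended on the summary and the library: with the mean of log2 tail length in place of the median, the change was 0.20 for Mrps16, 0.10 for Mrpl54 and 0.16 for Mrps7. Without WT 2 it was 0.22 for Mrps16 and 0.16 for Mrps7, and without KO 1 it was 0.17 for Mrps7.

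The third question was whether the amount of these messages differed. In bulk RNA, fewer cells of a type and less RNA per cell cannot be told apart. The family's level was 9007 and 10184 RPM in the WT libraries and 9631 and 10723 RPM in the KO libraries, or 9596 ± 832 in WT and 10177 ± 772 in KO (SD, n = 2 each). The groups overlapped, and the difference of 581 RPM was within their spread (exact permutation p = 0.667). It was -112 RPM after median-of-ratios scaling, -7.40 RPM without WT 1 and 34.9 RPM without KO 2, and 68.6 RPM when the 4 genes near the end of chromosome 11, described below, were left out.

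By gene, limma voom called 0 of 76 tested genes, against 1 of 4815 in all (0.0208%), and at an unadjusted p under 0.05 gave 7 of the 76 (10.4% of all genes). Of these 7, the 2 genes Mrpl12 and Mrpl58 were higher in KO (5.32% of all genes were higher at this p), and the 5 genes Mrpl21, Mrps31, Mrpl43, Mrps10 and Mrps5 lower (5.07%). The median log2 change over the 76 genes was -0.12 under median-of-ratios scaling, with 28 above 0 (36.8%; 50% of all genes). Both scaled KO levels lay below WT in 20 genes (26.3%; 20% of all genes) and above in 12 (15.8%; 20.5% of all genes). When levels were scaled by total reads instead, the median of these genes was -0.00448 and that of all tested genes 0.11. A change of scaling moves all genes by about the same amount, so the distance between the 2 medians is not tested by it. With scaling by total reads 38 of the 76 were above 0 (50%), while the median of all tested genes was itself above 0. Without KO 1 the median over these genes was 0.042 and 44 were above 0 (57.9%). The share of all genes above 0 was not counted under either setting, so neither count gives the family's standing beside all genes. The summed embryonic stem cell markers were also lower in both KO libraries, as given above, and their part in these values was not tested.

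Mrpl12, the stalk protein, which is also known to bind the mitochondrial RNA polymerase, had 148 and 259 RPM in WT and 432 and 560 RPM in KO, from 65, 91, 295 and 241 reads. Mrpl58, a peptidyl-tRNA hydrolase that rescues stalled mitochondrial ribosomes and is built into the large subunit, had 77.4 and 117 RPM in WT and 211 and 237 RPM in KO. Both genes were higher in both KO libraries, with no overlap. The log2 change was 1.22 (SE 0.28, limma voom adjusted p = 0.105) for Mrpl12 and 1.12 (SE 0.30, adjusted p = 0.132) for Mrpl58, so neither passed 0.05. Mrpl12 passed without a filter on reads (limma voom adjusted p = 0.00982) and with a replicate block, and Mrpl58 passed in neither. With 1 library left out, the log2 change ranged from 0.92 to 1.51 for Mrpl12 and from 0.93 to 1.31 for Mrpl58. Such fits keep a single library in 1 genotype, so their p-values are not given.

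On the lower side, Mrpl21, a large-subunit protein of bacterial descent, had 146 and 199 RPM in WT and 108 and 81.4 RPM in KO (log2 change -0.94, SE 0.30, limma voom adjusted p = 0.239). Mrps31, a small-subunit protein added in mitochondria, had 102 and 117 RPM in WT and 76.1 and 60.5 RPM in KO (log2 change -0.77, adjusted p = 0.406). In both genes the KO levels lay below the WT levels. Neither gene passed the test under the alternatives run.

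**Figure D4:**
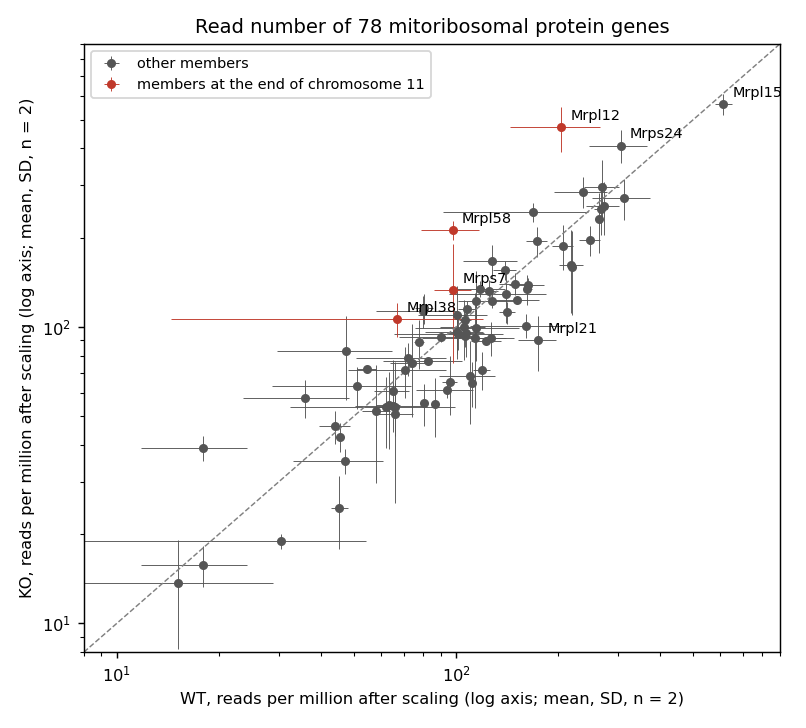
Levels in RPM after median-of-ratios scaling of the 78 mitoribosomal protein genes in KO (y axis, log scale) against WT (x axis, log scale), mean and SD of 2 libraries each, with the line of equal level. Mrpl12 (204 ± 60.5 in WT, 471 ± 82.3 in KO) and Mrpl58 (97.9 ± 19.0 and 213 ± 15.9) lie farthest above the line among well-read genes.

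Both genes lie near the end of chromosome 11. In RefSeq gene order, 11 of the genes lie on chromosome 11, and 4 of them, Mrpl12, Mrpl38, Mrps7 and Mrpl58, are 21, 47, 56 and 64 tested genes from its end. Of the last 100 tested genes there, 83 had more KO reads (50% of all tested genes), with a median log2 change of 0.73, against 0.00027 over all tested genes. From Cog1, 72 tested genes from the end, onward, every tested gene except H3f3b (-0.055) was above 0, and the 4 genes lie in this run. The start of the run was read from these same values. An earlier analysis of the same data had already found this stretch. Mrpl38, a mitochondrial addition to the large subunit, had 42, 11, 69 and 53 reads (log2 change 0.86, limma voom adjusted p = 0.492), and Mrps7 had 43, 33, 66 and 79 (0.32, adjusted p = 0.798). For these 2 genes the scaled WT and KO levels overlapped, Mrpl38 had a log2 change of 0.0018 without WT 2 and passed without WT 1 (1.78, limma voom adjusted p = 0.0316), and Mrps7 turned to -0.066 without KO 2. Together the 4 genes had 419 and 501 RPM in WT and 840 and 1105 in KO.

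Of the 7 other genes of the chromosome, 5 had fewer and 2 had more KO reads on the scaled level. Mrpl45, which anchors the ribosome to the inner membrane, had a log2 change of -0.45, Mrpl27 -0.39, Mrpl22, of the exit tunnel, -0.27, Mrpl10, at the stalk base, -0.26 and Mrpl55 -0.11, while Mrps23 had 0.31 and Mrps24 0.42. Over the 72 tested genes outside the end of chromosome 11, the median log2 change was -0.13, 24 were above 0 (50% of all genes), and at an unadjusted p under 0.05 none was higher (5.32% of all genes) and 5 were lower (5.07% of all genes). The share that was lower was near that of all genes.

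**Figure D5:**
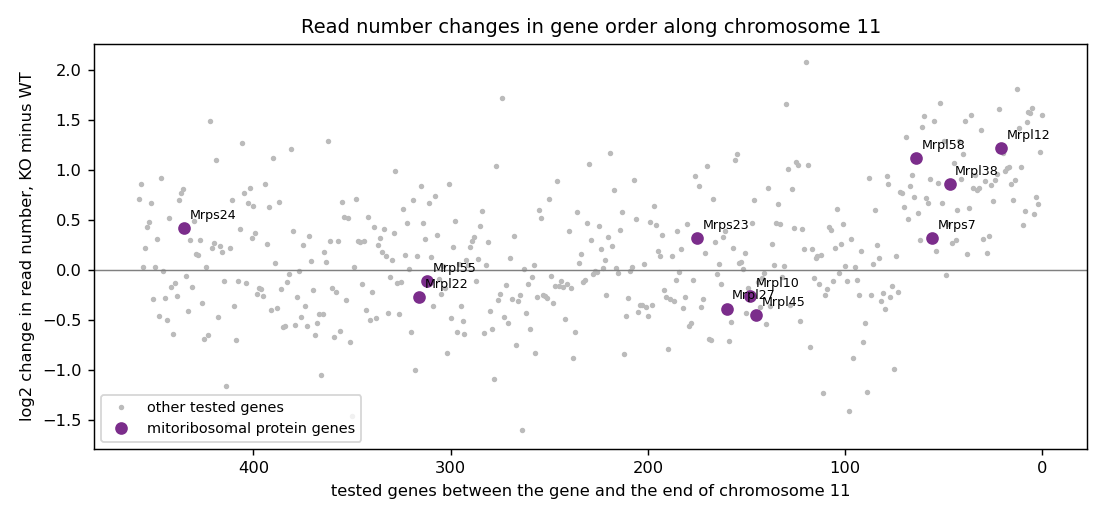
Log2 change in read number, KO minus WT (y axis), of tested genes in RefSeq order along chromosome 11, by the number of tested genes to its end (x axis). Mrpl12, Mrpl38, Mrps7 and Mrpl58 lie within 64 genes of the end, where 83 of the last 100 tested genes are above 0 (50% of all tested genes). The other 7 mitoribosomal protein genes lie between -0.45 and 0.42.

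Other genes of mitochondrial translation were read from lists. None of the 5 ribosomal proteins without an Mrp name passed in read number, and none of the 4 with enough reads passed in tail length (limma, adjusted p). At an unadjusted p under 0.05, 1 of the 5 was lower in KO in read number (Dap3, log2 change -0.83, against 10.4% of all genes in either direction). In tail length 1 of the 4 was shorter in KO at this p (Gadd45gip1, -0.37, against 2.33% of all genes). The most read were Aurkaip1 (274 RPM, median tail 87.4 nt) and Chchd1 (219 RPM, 99.1 nt), both of the small subunit. Among 14 translation factors, 6 had enough reads for the read test and 2 for the tail test, with none called and none at an unadjusted p under 0.05; the most read were Tufm, the elongation factor (106 RPM), and Oxa1l, the membrane insertase (72.6 RPM). The listed symbol Ict1 is an older name of Mrpl58 and was at 0. Of 26 assembly factors, 16 and 2 could be tested, and of the RNA-binding pair Slirp (317 RPM) and Lrpprc (62.4 RPM), which protect mitochondrial mRNAs, 2 and 1; none was called and none had an unadjusted p under 0.05.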

How the data were processed

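Per the labels' protocols, polyadenylated RNA was selected on oligo(dT) beads, prepared with a direct RNA kit and barcode adapters, and sequenced on a MinION. The submitters' processing notes name minimap2 2.20; the basecaller, the tool that estimated tail length and the genome build are not given in the sources used here. Per the file headers, the deposited table gives 1 line per read with transcript, symbol, library and estimated tail length in nt, with no normalization recorded, and the authors' yes-or-no classes of Mov10 targets. All reads above 0 nt were used. The deposited table has no counts: reads were counted per symbol here.

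Gene medians (at least 20 reads in each library) were tested on the log2 scale with limma 3.58.1 in R 4.3.3, with a read-number trend. Read numbers (mean of at least 10) were tested with limma voom, 0.5 reads added and median-of-ratios scaling. P-values were Benjamini-Hochberg adjusted over all genes, at a threshold of 0.05. Pooled values and within-library contrasts were compared by exact permutation tests. Tables were read with pandas 2.3.3 under Python 3.11.15, and permutations used numpy 2.4.6. The 2 fits were first tested on simulated data.

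Genes, lists and tests were chosen with earlier results of these data known. Genes were named for the most reads (8), the longest and shortest tails (4 each), the smallest p (4 in each test), the Mrps18 paralogs and the end of chromosome 11. Alternatives changed summaries, filters, scaling and transcripts, added a replicate block or left out 1 library.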

Additional observations from a re-analysis of the deposited data

How the results depend on the processing

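The means of the 5 within-library contrasts kept their sign under all alternatives run, though the large minus small subunit contrast was not negative in every library with at least 50 reads or with shared transcripts left out, and the contrast with other nuclear-encoded genes ranged from -10.9 to -7.38 nt. Tail length gave 0 calls among these genes under each alternative. The KO minus WT difference of the pooled median ranged from -1.80 to 4.35 nt when 1 library was left out, turning negative without WT 1 (-0.688) and without KO 1 (-1.80). The difference in tails of 150 nt or more was -1.35 points and became 0.645 with limits of 20 and 100 nt; it ranged from -2.46 without KO 1 to -0.243 without KO 2. The difference in family level, 581 RPM, became -112 with median-of-ratios scaling and ranged from -7.40 to 1170 when 1 library was left out. Calls in read number went from 0 to 1 without a filter on reads and ranged from 0 to 4 when 1 library was left out: Mrpl12 and Mrpl38 without WT 1, and Mrpl12, Mrpl20, Mrpl24 and Mrpl58 without WT 2. The median log2 change in read number became -0.00448 with scaling by total reads and ranged from -0.17 to 0.042 when 1 library was left out. Mrps7 read number ranged from -0.066 to 0.83 on the log2 scale, the lowest without KO 2. The cause of these shifts was not tested. Alternatives that counted Mrps30 and Mrps18a as large, limited other genes to non-targets or left out the end of chromosome 11 were chosen after seeing the data.

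Gene by gene, replicate numbers showed no pairing: deviations from the group means of same-numbered libraries correlated at 0.0135 (tail length, 1935 genes) and 0.0162 (read number, 4815 genes). A shift common to all genes of same-numbered libraries would not be seen in these correlations. With the replicate block 1 of these genes was called in read number (Mrpl12, limma voom adjusted p = 0.0117) and 0 in tail length. These counts were not set beside the share of all genes called with the block. For the pooled median and level, a block cannot change the differences of 1.27 nt and 581 RPM in this balanced design; their SD over the 2 numbered pairs was 7.12 nt and 59.8 RPM, and the exact paired permutation p was 1 and 0.5. Depth limits single genes most: 14 of the 78 had fewer than 20 reads in a library.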
